A study of Mus musculus with 12 samples.

Results

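Mitochondrial ribosomal protein genes were followed in mouse mammary epithelial cells across RNA and ribosome footprint libraries. The members were all genes of the count table whose symbol starts with Mrpl or Mrps followed by a digit, and 71 of the 7318 listed genes met this rule. All cells came from 4-week-old female FVB/N mice that carried both MMTV-Wnt1 and MMTV-iFgfr1, so the Wnt1 transgene was present in every group. The MMTV promoter drives its transgene mainly in mammary epithelium, and iFgfr1 is an FGF receptor that the dimerizing drug AP20187 switches on. Mice received vehicle or AP20187 for 6 h, and the study asked how FGFR1 signalling changes transcripts and their translation in WNT-driven glands. Each treatment gave 3 RNA libraries and 3 footprint libraries, 12 in all. The labels do not say how many mice entered a library or whether replicates came from separate mice, so p-values measure the spread between these libraries.

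The mitochondrial ribosome makes the few proteins encoded by mitochondrial DNA, all of them parts of the respiratory chain or of ATP synthase. Its RNAs come from the mitochondrial genome, while every one of its proteins is encoded in the nucleus, made on cytosolic ribosomes and imported. It has a small subunit that reads the mRNA and a large subunit that forms the peptide bond. Many of its proteins have bacterial counterparts, and others are found only in mitochondria. Mammary epithelium builds up mitochondria as it grows and prepares for milk secretion.

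Of the 71 members, 45 encode large-subunit proteins and 25 encode small-subunit proteins. The large-subunit group holds 27 proteins with bacterial counterparts and 18 that are specific to mitochondria, and the small-subunit group holds 15 and 10. Mrps30 was counted with the large subunit, where its protein sits despite its symbol. Mrps36 belongs to neither subunit, since its product is now known as a part of the alpha-ketoglutarate dehydrogenase complex. Mrps18a, which was to be described for the same reason, is not among the genes analysed here. All 71 members matched the GENCODE M21 annotation (build GRCm38, equal to mm10) and lay on 17 chromosomes. Their coding lengths ran from 195 to 1326 bases with a median of 603, against a median of 1440 over the 7135 listed genes that matched.

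The depth differed strongly between the assays. RNA libraries held 94513818 to 251874393 counts and footprint libraries held 1772969 to 11018709. Members took 0.219% to 0.292% of the counts in vehicle RNA and 0.282% to 0.352% in AP20187 RNA. They took 0.486% to 0.572% in vehicle footprints and 0.534% to 0.649% in AP20187 footprints. Levels below are CPM, the counts of a gene relative to the library total, scaled by trimmed mean of M-values (TMM) within each assay. The median member stood at 30.4 ± 4.73 CPM in vehicle RNA and 40.4 ± 5.76 CPM in AP20187 RNA (SD, n = 3 each). It stood at 66.5 ± 8.48 CPM in vehicle footprints and 73.9 ± 5.77 CPM in AP20187 footprints (SD, n = 3 each).

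Markers of the labelled cell type were present, and so were markers of other cells. The 8 listed luminal epithelial markers summed to 4160 to 5180 CPM in vehicle RNA and to 7000 to 9380 CPM in AP20187 RNA, with 6 of the 8 higher and 2 lower by edgeR's test. The 9 basal markers summed to 4650 to 5490 CPM and then to 1940 to 3290 CPM, with 5 lower. Of these 9, 3 had a positive fold change, none of them called. The 6 fibroblast markers went from 3400 to 5900 CPM in vehicle to 1260 to 1710 CPM, all 6 lower. Endothelial markers (4 genes) went from 531 to 717 CPM to 286 to 327 CPM, and adipocyte markers (5 genes) from 263 to 502 CPM to 48.1 to 104 CPM. Immune markers (3 genes) went from 349 to 841 CPM to 1100 to 1400 CPM. Of these 3, Cd14 rose (log2 change 1.42, adjusted p = 0.0226, edgeR), while Ptprc gave -0.96 and Cd68 gave -0.41 without passing. None of these markers was at 0 in any group. The genes analysed held 8 of 11 chosen luminal, 9 of 9 basal and 6 of 9 fibroblast markers. They held 4 of 7 endothelial, 5 of 8 adipocyte and 3 of 8 immune markers. Levels of the absent markers are unknown. In footprints the fibroblast markers summed to 11500 to 31000 CPM in vehicle and 3120 to 4730 CPM after AP20187. These marker levels moved with the treatment, and their part in the results on mitochondrial ribosomal genes was not tested. In such bulk libraries, fewer cells of a type and less RNA per cell cannot be told apart.

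The RNA of mitochondrial ribosomal protein genes was higher after AP20187 for 12 members and lower for none. The 12 genes rose by 1.41-fold (Mrps34) to 2.13-fold (Mrpl34), and they encode proteins of both subunits. The fold change was positive for 66 of the 71 members and negative for 5, against 3731 and 3583 of all 7314 genes tested. Its median was 0.38 on the log2 scale for members, against 0.013 over all genes. Among members it ranged from -0.19 for Mrpl23 to 1.09 for Mrpl34. The call was an adjusted p under 0.05 in edgeR's quasi-likelihood test with Benjamini-Hochberg adjustment over all genes. The 12 calls are 16.9% of the members, near the 12.4% of all genes that were called higher. The absence of lower calls stands beside 13.9% of all genes called lower. At an unadjusted p under 0.05 there were 26 members. The lowest AP20187 level exceeded the highest vehicle level for 26 members (36.6%), against 21.9% of all genes. The highest AP20187 level was under the lowest vehicle level for none, against 23.1% of all genes.

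**Figure D1:**
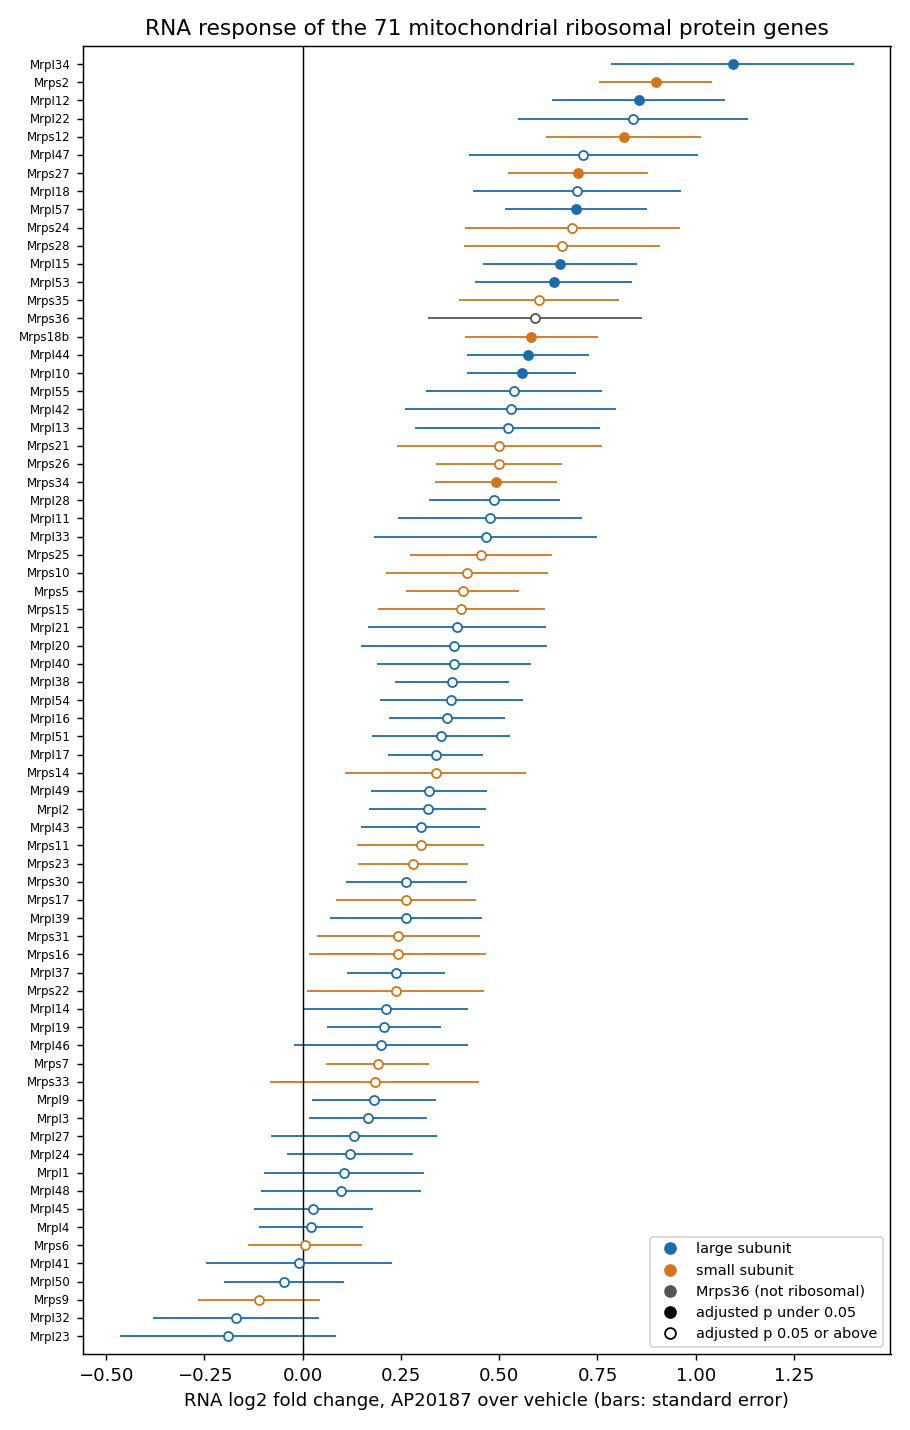
RNA log2 fold change of AP20187 over vehicle for each of the 71 members (points, with standard errors from edgeR's test as bars), coloured by subunit and filled where the adjusted p was under 0.05. Nearly the whole family lies to the right of 0 (66 of 71), and the 12 filled points run from 0.49 for Mrps34 to 1.09 for Mrpl34.

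Mrps2, a small-subunit protein with a bacterial counterpart (chr2:28468066-28471178, plus strand), gave the steadiest change. Its RNA stood at 22.5, 24.6 and 21.0 CPM in the vehicle libraries and at 44.9, 40.4 and 41.7 CPM in the AP20187 libraries. The groups were far apart, and the log2 fold change was 0.90 ± 0.14 (standard error, SE; adjusted p = 0.00755). Mrps12 (chr7:28739641-28741820, minus strand) encodes the counterpart of the bacterial protein at the decoding centre. Its vehicle values were 16.4, 18.0 and 12.5 CPM and its AP20187 values 24.3, 27.4 and 31.2 CPM, a log2 change of 0.82 ± 0.20 (adjusted p = 0.0215). No vehicle library reached the lowest AP20187 library for this gene.

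Among the called large-subunit genes, Mrpl34 had the largest fold change and the lowest vehicle level. It lies at chr8:71464959-71465747 on the plus strand and encodes a small core protein. Its RNA was 7.50, 11.4 and 5.07 CPM in vehicle and 13.8, 19.1 and 18.4 CPM after AP20187 (log2 change 1.09 ± 0.31 SE, adjusted p = 0.0349). The groups did not overlap, but vehicle replicate 2 came near the lowest AP20187 library. Mrpl12 (chr11:120484613-120489065, plus strand) encodes the stalk protein that recruits translation factors. Its RNA was 33.5, 55.8 and 32.0 CPM in vehicle and 68.1, 76.2 and 75.1 CPM after AP20187 (log2 change 0.86 ± 0.22 SE, adjusted p = 0.0264). Here too, vehicle replicate 2 was the highest of the vehicle libraries. Mrpl10, which encodes the stalk base that holds Mrpl12, went from 52.4 ± 4.53 CPM to 77.2 ± 7.91 CPM (SD, n = 3; log2 change 0.56, adjusted p = 0.0246 in edgeR's test).

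The other calls covered further core and mitochondrion-specific proteins. Mrpl15, a core protein of the large subunit, changed by 0.65 on the log2 scale (adjusted p = 0.0418, edgeR). The mitochondrion-specific large-subunit genes Mrpl57, Mrpl53 and Mrpl44 changed by 0.70, 0.64 and 0.57 (adjusted p = 0.0269, 0.0471 and 0.0312). The mitochondrion-specific small-subunit genes Mrps27, Mrps18b and Mrps34 changed by 0.70, 0.58 and 0.49 (adjusted p = 0.0253, 0.0385 and 0.0484). Mrps27 encodes a pentatricopeptide-repeat protein, and Mrpl44 encodes a protein related to RNase III. For all 12 called genes the RNA groups did not overlap. By class, 4 of 27 conserved and 3 of 18 mitochondrion-specific large-subunit genes were called higher, with medians of 0.39 and 0.31. Of the small-subunit genes, 2 of 15 conserved and 3 of 10 specific genes were called higher, with medians of 0.40 and 0.47. The medians of the subunits lay close together, at 0.35 for the large and 0.41 for the small subunit. Mrps30 gave 0.26 ± 0.15 (adjusted p = 0.227), and Mrps36, the non-ribosomal protein, gave 0.59 ± 0.27 (adjusted p = 0.14). Exons of Mrpl12, Mrps27, Mrpl53, Mrps18b, Mrpl44, Mrpl10 and Mrps34 overlap those of another annotated gene. Such overlap was found for 36.6% of all members and 31.2% of the 7135 listed genes that matched the annotation. The RNA kit keeps strand, but whether the counting used it is not given in the sources used here, so reads of such neighbours may be mixed.

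**Figure D2:**
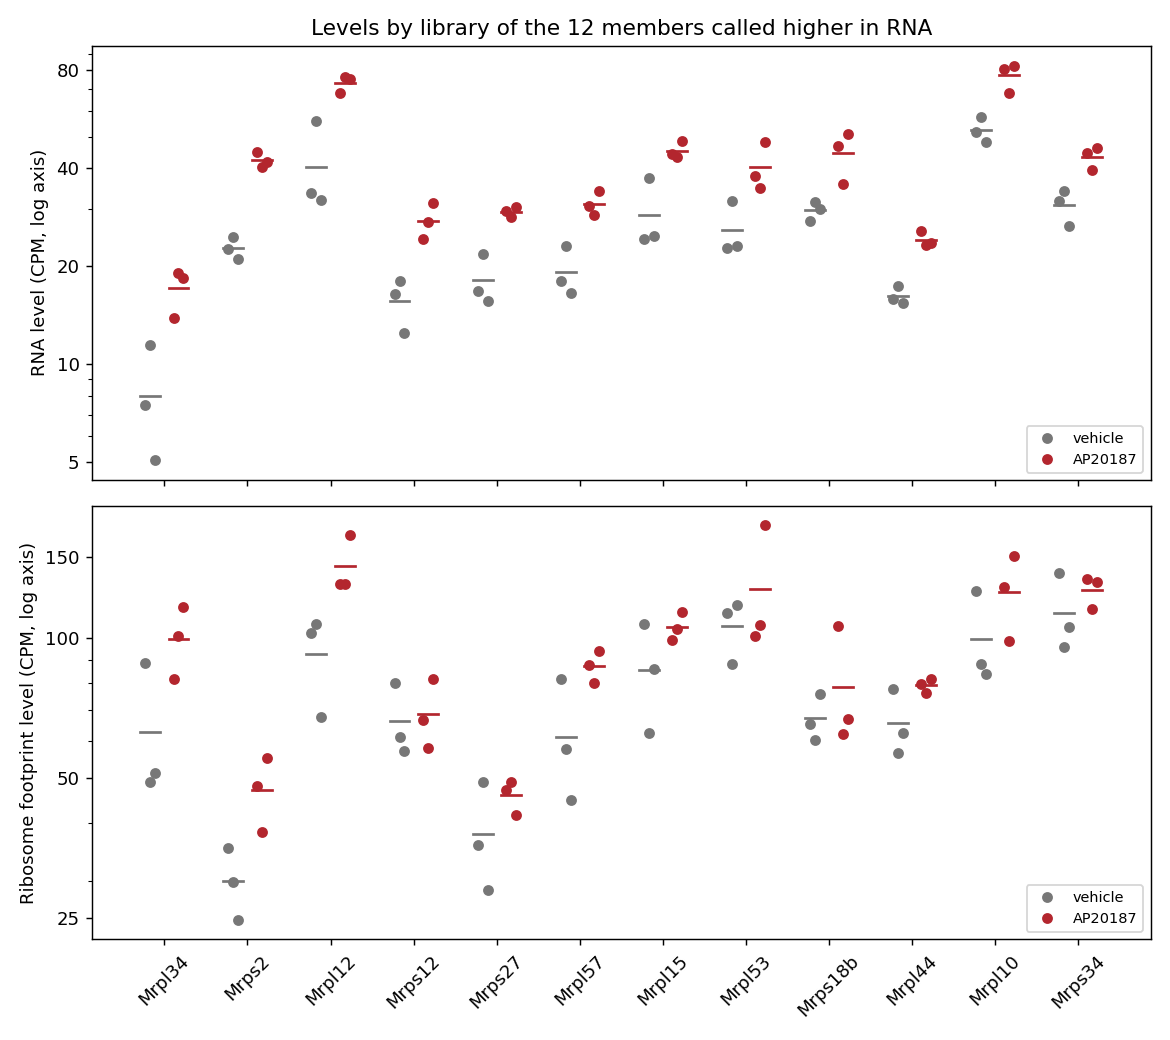
Level of the 12 members called higher in RNA, in CPM on log axes, in each vehicle and AP20187 library (points) with group means (short lines), for RNA above and ribosome footprints below. RNA groups are separate for each of the 12 genes, whereas footprint groups are separate for Mrpl12 and Mrps2 alone among them.

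The number of RNA calls rested on single libraries. Without vehicle replicate 1 or vehicle replicate 3, only Mrps2 among the members passed in each case, and without AP20187 replicate 1 only Mrps2 and Mrps12 passed. Without AP20187 replicate 3, 6 members passed, and without AP20187 replicate 2, 16 passed. Without vehicle replicate 2 there were 25. The count over all genes also moved, from 906 higher to 307, 247 and 388 without vehicle 1, vehicle 3 or AP20187 replicate 1, and to 1043 without vehicle replicate 2. All 12 genes kept a positive fold change in each of these fits, and Mrps2 passed in every one.

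The libraries differed in the level of the whole family. Relative to the vehicle mean, the median member deviated by -0.13, 0.23 and -0.11 on the log2 scale in vehicle RNA replicates 1, 2 and 3. It deviated by 0.30, 0.23 and 0.58 in AP20187 RNA replicates 1, 2 and 3. Vehicle replicate 2 and AP20187 replicate 2 thus stood at nearly the same level, and AP20187 replicate 3 stood apart above. Both subunits followed this pattern, at 0.22 for the small and 0.23 for the large subunit in vehicle replicate 2, and at 0.59 and 0.56 in AP20187 replicate 3.

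Other gene families shared part of this library pattern. The 73 cytosolic ribosomal protein genes deviated by 0.25 in vehicle replicate 2 and by 0.28 in AP20187 replicate 3, but by -0.19 and -0.11 in AP20187 replicates 1 and 2. None of these 73 was called in RNA, and their median response was 0.0051. The median of the mitochondrial members minus that of the cytosolic genes lay between -0.021 and 0.035 in the vehicle libraries. It lay at 0.49, 0.34 and 0.31 in the AP20187 libraries, so on this relative scale the RNA libraries of the treatments did not overlap. The footprint libraries did, at 0.090, -0.089 and -0.070 in vehicle and 0.19, -0.074 and 0.25 after AP20187. Only 56 of the 73 cytosolic genes had enough footprint counts to be tested, which limits this scale for footprints. The 71 respiratory chain and ATP synthase genes deviated by 0.30 in vehicle replicate 2 and by 0.14, 0.15 and 0.56 in the AP20187 libraries. None of them was called, 65 were positive, and their median response was 0.28. The mitochondrial ribosomal members exceeded these genes by less in AP20187 replicate 3 (0.58 against 0.56) than in vehicle replicate 1 (-0.13 against -0.18). Relative to the respiratory chain genes, the RNA libraries of the treatments therefore overlapped.

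**Figure D3:**
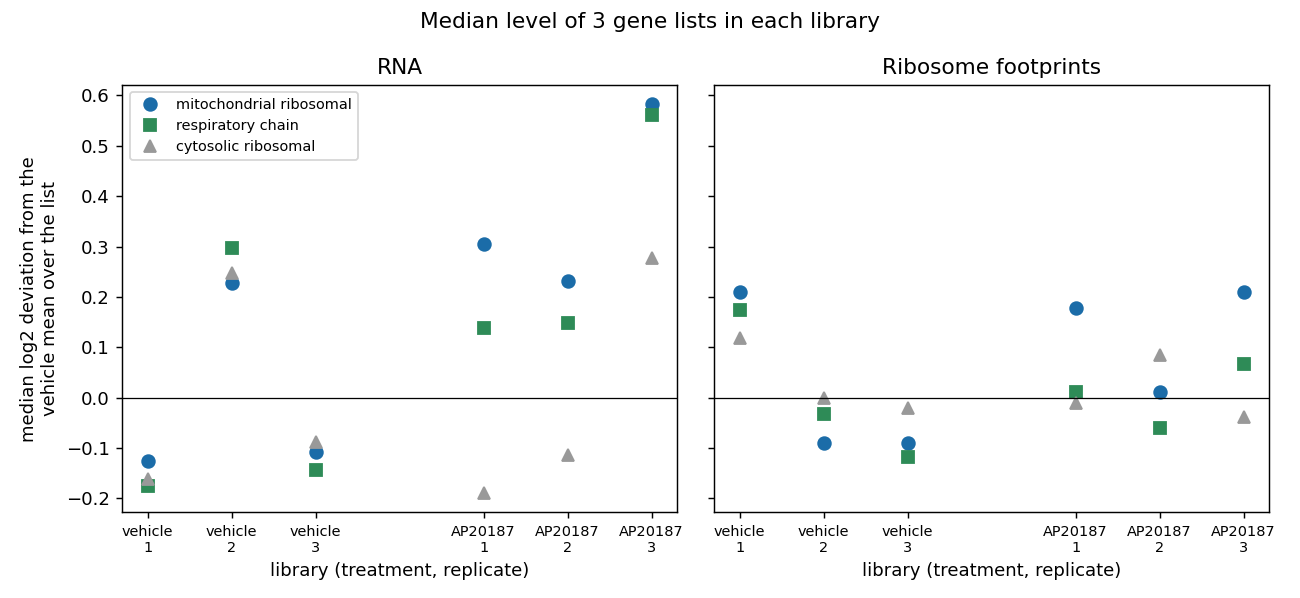
Median deviation from the vehicle mean (log2) over mitochondrial ribosomal, respiratory chain and cytosolic ribosomal protein genes in each library, for RNA on the left and footprints on the right. In RNA, all 3 lists are high in vehicle replicate 2 and AP20187 replicate 3, and the mitochondrial ribosomal median lies above the cytosolic one in each AP20187 library.

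Among genes that work with the mitochondrial ribosome, all RNA calls outside the transcriptional regulators were higher. The shares called higher were 25% of translation factors, 25% of assembly factors, 20% of ribosomal proteins with other symbols, 11.1% of transcription and processing genes and 5.88% of tRNA synthetases, against 12.4% of all genes. These lists are short, with 5 to 17 genes each. Of 12 listed translation factors, 3 rose in RNA and none fell. These were Tsfm (elongation factor Ts; log2 change 0.92, adjusted p = 0.0106), Gfm2 (ribosome recycling; 0.64, adjusted p = 0.0144) and Tufm (elongation factor Tu; 0.50, adjusted p = 0.0234), all by edgeR. Tsfm went from 12.5, 14.8 and 11.5 CPM to 24.5, 26.1 and 23.2 CPM, with no overlap. Of 12 listed assembly factors, 3 rose and none fell, namely Trub2 (a pseudouridine synthase; 0.94, adjusted p = 0.0122), Mettl17 (0.65, adjusted p = 0.0262) and Noa1 (a GTPase; 0.49, adjusted p = 0.0398). Of 5 ribosomal proteins with other symbols, Gadd45gip1 rose (0.52, adjusted p = 0.0469), while Ptcd3 gave 0.40 and Ict1 gave 0.25. Of 9 genes of mitochondrial transcription and RNA processing, Elac2 rose (a tRNA 3′ processing enzyme; 0.50, adjusted p = 0.038), and of 17 mitochondrial tRNA synthetases, Ears2 rose (0.50, adjusted p = 0.045). None of these lists held a gene called lower, against 13.9% of all genes.

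Of the 4 listed regulators, 2 fell and none rose, against 13.9% of all genes called lower and 12.4% called higher. With only 4 genes, this count is a description. Gabpa and Gabpb1 encode the subunits of the ETS-family factor GABP, also called NRF-2, which binds many nuclear promoters of mitochondrial genes. Gabpb1 RNA fell from 395, 339 and 436 CPM to 207, 134 and 261 CPM (log2 change -0.96 ± 0.24 SE, adjusted p = 0.0232). Gabpa RNA fell from 113, 101 and 117 CPM to 80.6, 86.6 and 77.9 CPM (log2 change -0.43 ± 0.12 SE, adjusted p = 0.0369). Yy1 gave -0.46 (adjusted p = 0.054), and Nrf1, a factor known to bind promoters of nuclear genes for mitochondrial proteins, gave 0.085 ± 0.12 (SE, adjusted p = 0.631). The 13 protein genes of mitochondrial DNA, which are what this ribosome translates, are not analysed here. Of these 11 pathway calls, all 11 missed the threshold without vehicle replicate 3 (adjusted p 0.0513 to 0.183, edgeR), 10 without vehicle replicate 1 (0.0528 to 0.146) and 9 without AP20187 replicate 1 (0.0621 to 0.163). Without AP20187 replicate 3, AP20187 replicate 2 or vehicle replicate 2, 4, 3 and 2 of them missed it. All 11 kept their sign in each of these fits.

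Promoters were examined because 66 of 71 RNA fold changes had the same sign and because these regulators have known binding sequences. RefSeq promoters (build GRCm38.p6, 250 bases before to 50 after the start) matched 62 of the 71 members and 5668 of all listed genes. On either strand, the NRF1 sequence GCGCANGCG occurred in 24.2% of member promoters and 15.9% of all, and the ETS sequence ACTTCCGG in 16.1% and 9.46%. The YY1 sequence AAGATGGC occurred in 14.5% of member promoters and 5.49% of all. The E-box CACGTG occurred in 4.84% and 10.7%, and the GC box GGGCGG in 51.6% and 68.8%. A second protein-coding gene started within 1000 bases in the opposite direction for 22.5% of members and for 11.3% of all. Among the called genes, these were Mrps12 (Sars2, a mitochondrial tRNA synthetase gene, 172 bases away), Mrps27 (Ptcd2, 81 bases), Mrpl57 (Ska3, 49 bases), Mrps18b (Ppp1r10, 45 bases), Mrpl10 (Lrrc46, 153 bases) and Mrps34 (Eme2, 29 bases). A match is a description of the sequence and not a shown binding site.

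Of the 12 genes called in RNA, 10 had a promoter in the table. In the 150 bases before the start, 5 of these 10 held an NRF1 or ETS match and 5 (Mrps2, Mrpl34, Mrps12, Mrpl53 and Mrps18b) held neither. The shares given above cover the longer region, so they are no background for this count. The following windows show all 5 with a match and Mrps2 as an example without, with NRF1 or ETS matches in capitals. Mrpl10, Mrpl12, Mrpl44 and Mrpl57 hold an NRF1 match, Mrps27 holds an ETS match, and Mrps2, the steadiest change, holds neither and no YY1 match in this window.
Mrpl10, chr11:97041432-97041581, plus strand: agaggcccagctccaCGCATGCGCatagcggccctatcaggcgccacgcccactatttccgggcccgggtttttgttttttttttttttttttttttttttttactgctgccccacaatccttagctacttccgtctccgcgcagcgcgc
Mrpl12, chr11:120484487-120484636, plus strand: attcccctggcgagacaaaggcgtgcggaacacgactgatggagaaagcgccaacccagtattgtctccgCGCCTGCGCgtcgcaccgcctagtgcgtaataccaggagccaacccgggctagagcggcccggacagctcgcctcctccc
Mrpl44, chr1:79775868-79776017, plus strand: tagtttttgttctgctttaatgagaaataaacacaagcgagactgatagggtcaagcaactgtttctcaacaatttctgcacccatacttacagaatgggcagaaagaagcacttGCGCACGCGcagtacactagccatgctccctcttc
Mrpl57, chr14:57826089-57826238, plus strand: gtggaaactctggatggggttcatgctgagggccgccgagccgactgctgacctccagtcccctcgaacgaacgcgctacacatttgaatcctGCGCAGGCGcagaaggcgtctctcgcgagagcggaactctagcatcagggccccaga
Mrps27, chr13:99344636-99344785, plus strand: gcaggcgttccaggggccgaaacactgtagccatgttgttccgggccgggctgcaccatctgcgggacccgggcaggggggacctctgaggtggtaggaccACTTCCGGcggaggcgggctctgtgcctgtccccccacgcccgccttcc
Mrps2, chr2:28467916-28468065, plus strand: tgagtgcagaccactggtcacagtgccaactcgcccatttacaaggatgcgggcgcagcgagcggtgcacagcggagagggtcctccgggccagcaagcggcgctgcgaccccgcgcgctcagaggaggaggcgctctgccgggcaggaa
The NRF1 match lies at a different distance from the start in each of these 4 genes. None of the 6 windows holds a YY1 match. Over the longer region, 9 of 62 member promoters held one, and most of these lay outside the 150 bases before the start. The absence of YY1 matches from these windows, Mrps2 included, therefore cannot tell these genes from other members.

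Ribosome footprints did not give calls for any member. Of the 70 members tested (Mrpl23 had too few footprints), 0 were higher and 0 lower by edgeR's test, and 2 had an unadjusted p under 0.05. DESeq2 and limma voom also called 0. Over all 7041 genes tested, 0.937% were called higher and 1.6% lower, which is 66 and 113 genes. With the replicate number as a block, 353 and 362 genes were called but still 0 members. The fold change was positive for 44 members and negative for 26, against 3660 and 3381 of all genes. Its median was 0.11 for members, against 0.027 over all genes. With each library left out in turn, the median of the members ran from 0.019 to 0.20. The lowest AP20187 library exceeded the highest vehicle library for 4 members (5.71%; Mrps35, Mrpl12, Mrps2 and Mrpl18), against 11.8% of all genes. The reverse held for none, against 11.5% of all genes.

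The 4 members with the smallest p-values in footprints were Mrpl18, Mrpl12, Mrpl34 and Mrps2. Mrpl12 had 102, 108 and 67.7 footprint CPM in vehicle and 131, 131 and 167 after AP20187 (log2 change 0.62 ± 0.27 SE, adjusted p = 0.277). Mrps2 had 35.4, 29.9 and 24.8 CPM and then 48.0, 38.2 and 55.2 CPM (0.65 ± 0.32 SE, adjusted p = 0.343). In both the groups were separate but spread widely. Mrpl34 had 88.2, 48.9 and 51.3 CPM and then 81.6, 101 and 116 CPM (0.66 ± 0.30 SE, adjusted p = 0.309), with vehicle replicate 1 inside the range of the AP20187 libraries. Mrpl18 had 10.4, 5.44 and 11.2 CPM and then 16.4, 16.9 and 33.3 CPM (1.27 ± 0.51 SE, adjusted p = 0.235), on only 10 to 43 counts in each vehicle library. Mrps30 gave -0.13 ± 0.26 and Mrps36 gave 1.18 ± 1.23 on the log2 scale. Without a block for the replicate number, none of the pathway lists held a gene called in footprints. Gabpb1 gave -0.95 ± 0.32 (SE, adjusted p = 0.154) and Hsd17b10, a subunit of mitochondrial RNase P, gave -0.72 ± 0.26 (SE, adjusted p = 0.178). With the replicate number as a block, Gabpb1 (-0.95, adjusted p = 0.00737, edgeR) and Hsd17b10 (-0.70, adjusted p = 0.0472) were called lower. The labels do not state that these numbers pair the footprint libraries, so these calls rest on an assumed pairing. Lrpprc, which keeps mitochondrial mRNAs stable, had 39.2, 60.3 and 54.7 CPM and then 87.3, 80.1 and 98.6 CPM (0.77 ± 0.27 SE, adjusted p = 0.175). Its groups did not overlap, and it passed in the model over all 12 libraries (0.73, adjusted p = 0.0333), as did Hsd17b10 there (-0.77, adjusted p = 0.0327).

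**Figure D4:**
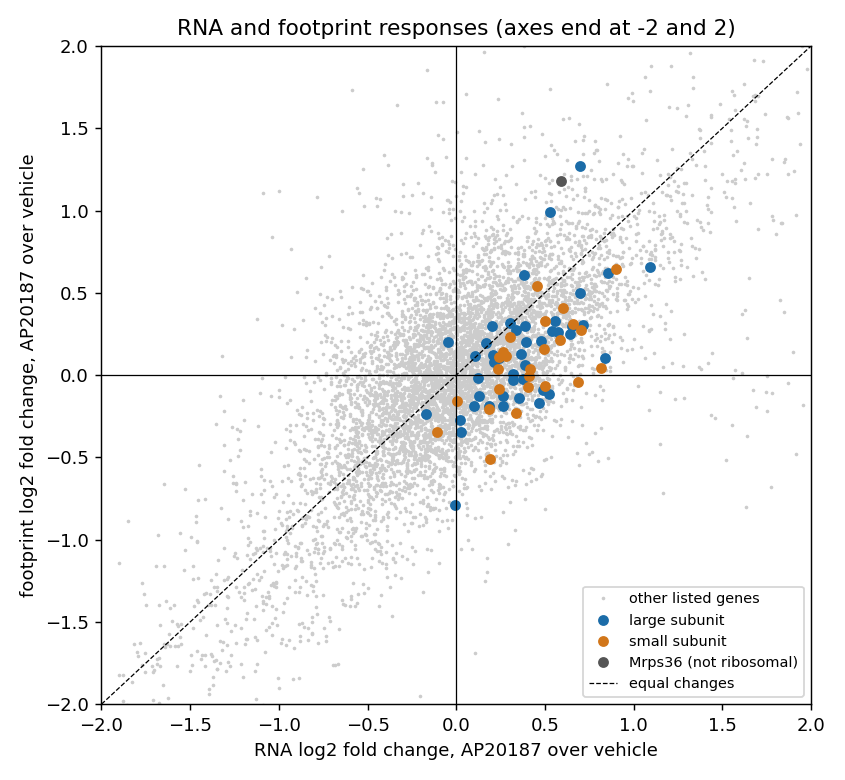
Footprint log2 fold change against RNA log2 fold change, AP20187 over vehicle, for 70 members (coloured by subunit) over the other listed genes (grey), with a dashed line of equal change. Members lie mostly right of 0 and below the line, and 247 genes, none of them a member, lie outside the axes.

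Translational efficiency, the footprint level relative to the RNA level of a gene, was tested as an interaction over all 12 libraries. No member passed (0 of 71, with 1 at an unadjusted p under 0.05), and DESeq2 and limma voom also called none. Over all 7315 genes 0% passed, with 350 at an unadjusted p under 0.05. The estimate was negative for 64 members and positive for 7, with a median of -0.34 against -0.080 over all genes. Over all genes it was negative for 4216 and positive for 3099, and over the respiratory chain genes negative for 65 and positive for 6. The median of the members moved to -0.20 without vehicle footprint replicate 1 and to -0.20 without AP20187 RNA replicate 3. Listed genes of at most 1326 coding bases with little sequence in common with other loci had a median of -0.20, and the respiratory chain genes had -0.41. The smallest p was that of Mrps12, whose RNA rose while its footprints stood at 80.1, 61.4 and 57.3 CPM in vehicle and 66.6, 57.9 and 81.8 CPM after AP20187. Its interaction was -0.82 ± 0.34 (SE, adjusted p = 0.988, edgeR). Mrpl28, Mrps24 and Mrpl13 followed with -0.62, -0.79 and -0.69, each with an adjusted p of 0.988.

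In vehicle cells, most members carried more footprints for their RNA than other genes did. The footprint-to-RNA ratio was set against the bulk of genes by TMM. Its log2 value was called above 0 for 47 of 71 members (66.2%), against 24.2% of all 7306 genes tested. It was called below 0 for 3 members, against 25.7% of all genes. The median member had a log2 ratio of 1.13, against -0.020 over all genes. The test was edgeR's quasi-likelihood test of footprint against RNA libraries. The ratio compares different library types, so it also holds the share of untranslated sequence in each RNA and how reads were assigned. The respiratory chain genes gave a median of 1.43 with 50 of 71 higher. By subunit, 28 of 45 large-subunit genes were higher (median 1.06) and 19 of 25 small-subunit genes were higher (median 1.26).

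The highest ratio belonged to Mrpl34. Its footprints stood at 88.2, 48.9 and 51.3 CPM beside 7.50, 11.4 and 5.07 CPM in RNA, a log2 ratio of 3.05 ± 0.39 (SE, adjusted p = 0.000255). Mrps24, the counterpart of a bacterial small-subunit protein at the mRNA entry, followed with 118, 70.7 and 67.5 footprint CPM beside 12.1, 20.5 and 10.3 RNA CPM (2.65 ± 0.35 SE, adjusted p = 0.000316). For both genes every footprint library stood far above every RNA library. Mrpl14, Mrps28, Mrpl28, Mrps12, Mrpl53 and Mrpl44 came next, from 2.42 down to 2.10 on the log2 scale. All 8 remained above the threshold in each alternative and with each library left out. After AP20187, fitted on its own 6 libraries, Mrpl34 had a log2 ratio of 2.62 and Mrps24 of 1.93. Mrps30 gave 1.71 ± 0.20 in vehicle (adjusted p = 0.000181).

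The lowest ratio belonged to Mrpl51, a mitochondrion-specific large-subunit gene (chr6:125191801-125196269, plus strand). Its footprints stood at 10.9, 4.89 and 13.6 CPM beside 45.6, 57.9 and 48.1 CPM in RNA (log2 ratio -2.25 ± 0.35 SE, adjusted p = 0.000789). No footprint library came near the RNA libraries, and after AP20187 the ratio was -2.77. Mrps33 gave -1.88 ± 0.72 (adjusted p = 0.0533) on 0, 6 and 12 footprint counts, where 0 counts allow up to 1.61 CPM in that library. Mrpl42 gave -1.57 ± 0.53 (adjusted p = 0.0324) and Mrpl18 gave -1.32 ± 0.42 (adjusted p = 0.0264). Mrpl51 was called lower with any library left out. Mrpl42 missed the threshold without any of the vehicle RNA replicates 1, 2 or 3 or footprint replicates 1 or 3 (adjusted p = 0.0659, 0.137, 0.0589, 0.0704 and 0.0651). Mrpl18 missed it without RNA replicate 1 or 2 or footprint replicate 2 (adjusted p = 0.0536, 0.147 and 0.0677), so 1 member was lower without RNA replicate 1 or 2.

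Members with low ratios had coding sequences that recur elsewhere in the genome. For each gene, every 28-base window of its coding sequence, about the length of a footprint, was looked up in GENCODE transcripts of genes at other loci. At least 10% of windows recurred for 21 members (29.6%), against 16% of the 7135 matched genes, and every locus that shared windows with a member was annotated as a pseudogene. The limit of 10% was chosen after the values were seen. The nearest members were Mrpl57 under it with 9.68% and Mrpl47 above it with 19.6%. The 50 members under the limit all had positive log2 ratios, from 0.076 to 3.05, with a median of 1.49 and 41 called higher (82%). Of the 21 above it, 6 were higher and 3 lower, 12 were negative, and the median was -0.14. All 12 negative ratios of the family fell in this group.

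The following first 90 coding bases show the contrast, with bases inside a shared window in capitals. Mrpl51, Mrps33 and Mrpl18 had low ratios, and Mrpl34 and Mrps24 had the highest. The sequences are from the principal GENCODE M21 transcripts, build GRCm38, in the coding direction.
Mrpl51: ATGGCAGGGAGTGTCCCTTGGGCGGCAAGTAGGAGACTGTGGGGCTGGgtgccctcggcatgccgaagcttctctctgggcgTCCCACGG
Mrps33: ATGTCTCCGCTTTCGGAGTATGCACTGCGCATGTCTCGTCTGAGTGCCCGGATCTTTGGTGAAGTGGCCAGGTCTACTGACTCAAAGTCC
Mrpl18: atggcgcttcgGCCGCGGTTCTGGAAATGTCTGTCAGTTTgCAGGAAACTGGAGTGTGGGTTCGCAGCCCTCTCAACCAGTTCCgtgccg
Mrpl34: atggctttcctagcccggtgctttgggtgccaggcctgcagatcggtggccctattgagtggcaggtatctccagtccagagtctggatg
Mrps24: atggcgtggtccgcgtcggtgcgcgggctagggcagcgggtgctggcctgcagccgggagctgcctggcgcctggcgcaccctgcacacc
Over the whole coding sequence, 66.1% of windows of Mrpl51 recurred in the pseudogene Gm14017, and 32.9% of Mrpl18 in Gm13675. For Mrps33, 90.4% recurred in Gm12540 or Gm5776. Neither Mrpl34 nor Mrps24 shared a window. Mrps36 and Mrpl23 shared all windows (100%), Mrps36 with 11 loci, and both had very few footprints. High sharing did not always go with a low ratio: Mrps10 shared 57.1% of windows and had a log2 ratio of 1.00, called higher, and Mrps26 shared 29.0% and had 1.67.

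The same split was present over all matched genes, a set that includes the members and the cytosolic ribosomal protein genes. Listed genes at or above the limit had a median log2 ratio of -0.60, and those under it had 0.055. Of the 73 cytosolic ribosomal protein genes 97.3% were at or above the limit, and their median ratio was -5.23 with 62 lower. Short coding length also went with higher ratios. Listed genes under the limit with a coding length of at most 1326 bases had a median of 0.59, with 43.3% called higher. The corresponding values for the 50 members under the limit were 1.49 and 82%. How reads that match several loci were treated is not given in the sources used here, and the part of sharing in the ratios was not tested beyond these splits. For the RNA response the median was 0.35 under the limit, with 10 of 50 called higher, and 0.41 above it, with 2 of 21.

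**Figure D5:**
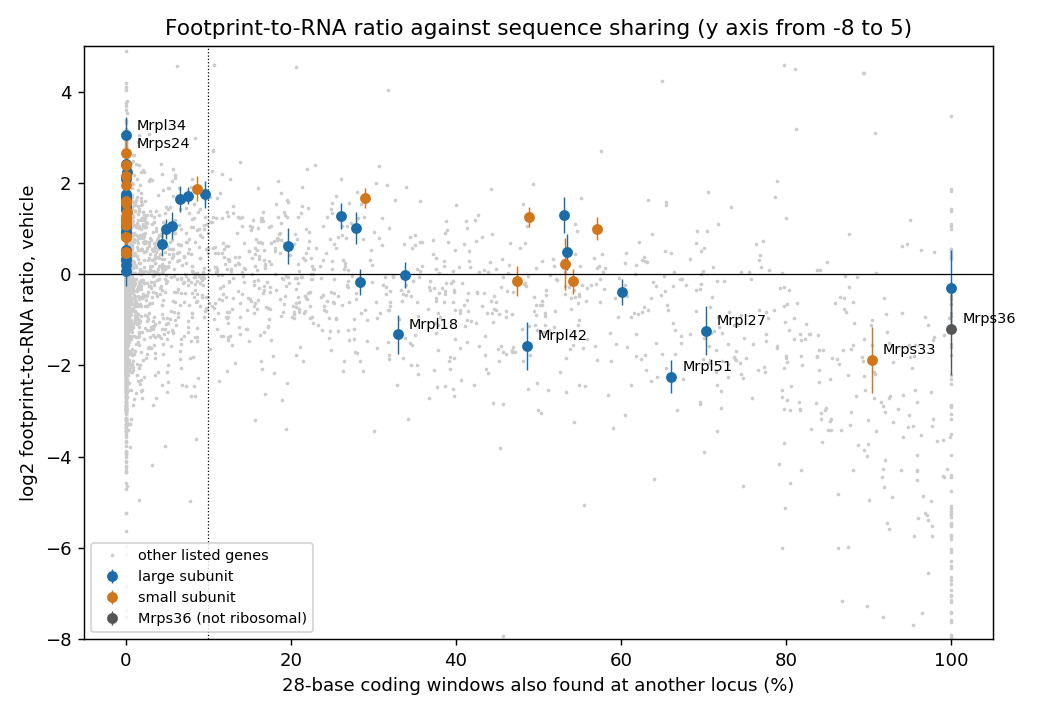
Log2 footprint-to-RNA ratio in vehicle against the percentage of 28-base coding windows found at another locus, for 71 members (coloured by subunit, bars: SE) over other listed genes (grey), with a dotted line at 10%. All members left of the line lie above 0, the 12 negative members lie right of it, and 107 genes, none of them a member, lie outside the vertical axis.

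Most of these proteins occur in a single copy per ribosome, with the stalk protein Mrpl12 as an exception, while footprint levels per coding length varied widely within the family. Among the 50 members under the sharing limit, vehicle footprints ran from 30.4 CPM per coding kb (Mrps27) to 623 (Mrpl33), a 20.5-fold range. The middle of this range was narrower, with quartiles at 73.8 and 190 and a median of 142, a ratio of 2.58. The 3 highest were Mrpl33 at 623 ± 211, Mrpl20 at 404 ± 29.9 and Mrpl17 at 360 ± 85.9 CPM per coding kb (SD, n = 3), all core large-subunit proteins. Their SDs overlap, so the order among these 3 is not resolved. Mrpl33 has the shortest coding sequence of the family, with 195 bases. The region counted for footprints is not given in the sources used here, and its part in these levels was not tested. The 3 lowest of all members were Mrpl23 at 5.32, Mrps36 at 5.61 and Mrps33 at 6.70 CPM per coding kb, each with at least 90.4% of windows shared and at most 12 counts in any vehicle library.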

How the data were processed

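RNA and ribosome footprints were measured in 12 libraries of mammary epithelial cells, 3 for each assay and treatment. Per the labels' protocols, cycloheximide at 100 µg/ml was present during a 2 h collagenase digestion, RNA and footprints came from a cell pellet, and RNA libraries were stranded. The authors deposited raw read counts per gene symbol, with no normalization, for 7318 genes. The submitters' processing notes name bcl2fastq 1.8.3, cutadapt, STAR, Bowtie2, HTSeq and mm10, without settings. How genes were selected and how reads at several loci were counted is not given in the sources used here.

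Counts were tested with edgeR 4.0.16 in R 4.3.3 (TMM, filterByExpr, quasi-likelihood test, Benjamini-Hochberg over all genes, threshold 0.05), with limma 3.58.1 and DESeq2 1.42.0 as alternatives. RNA and footprint responses were fitted on their own 6 libraries, translational efficiency on all 12, and vehicle ratios on the 6 vehicle libraries. Standard errors are the absolute log2 fold change over the square root of F. Intervals for 0 counts use 3 counts and cover counting error only. The scripts were tested on simulated data. Same-numbered footprint libraries deviated together over genes (r = 0.154, 0.257 and 0.339 between vehicle and AP20187). The labels do not state that the numbers pair libraries, so the number served as a block in an alternative fit only.

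Members, gene lists and tests were chosen with earlier results of these data known. Genes named are those past the threshold, up to 12 in a direction and otherwise the 8 with the largest change, or the 4 smallest p-values where none passed. Also named are the 3 highest and lowest levels per coding length and ratios, 3 genes with misleading symbols, and up to 3 genes per pathway list with the smallest p. Mrps10, Mrps26, Mrps35, Mrpl47 and Mrpl57 in the account of sharing and overlap, and the 3 immune markers, were chosen after their values were seen.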

Additional observations from a re-analysis of the deposited data

How the results depend on the processing

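The number of members called higher in RNA was 12 with edgeR, 22 with DESeq2, 4 as a contrast in the model over all 12 libraries, and 1 to 25 with 1 library left out. With the replicate number as a block it was 2. Same-numbered RNA libraries gave r = 0.21, -0.056 and -0.086 between vehicle and AP20187. With 3 libraries per group, such values cannot decide whether these numbers pair the RNA libraries. RNA and footprint libraries of the same number gave r = 0.0532, 0.0846 and 0.333 in vehicle and 0.439, 0.514 and 0.363 after AP20187, and not every one correlated best with its own number. The block changed no member call in footprints or translational efficiency, nor did a block for the cell pellet, and in vehicle ratio 47 members were higher and 3 lower with it as without. Mrpl18 was not among those 3 with the block (-1.27, adjusted p = 0.0568, edgeR). No member was called lower in RNA under any alternative. Members with a lower vehicle ratio numbered 3 with edgeR, 1 with limma voom and 1 to 4 with 1 library left out. Upper-quartile scaling shifted the median ratio of all genes by 0.18 and that of the members from 1.13 to 1.31. Signs turned with 1 library left out for results that were not called. The footprint change of Mrps30 ran from -0.28 to 0.033, that of Gadd45gip1 from -0.0092 to 0.39, that of Ict1 from -0.078 to 0.32 and that of Trmt10c from -0.10 to 0.55. The translational efficiency change of Mrps36 ran from -0.032 to 3.78. These turns came without vehicle footprint replicate 1 for Mrps30, replicate 3 for Gadd45gip1 and Mrps36, and AP20187 footprint replicate 3 for Ict1 and Trmt10c. The cause of these differences was not tested. Footprint depth limits the genes with few counts, such as Mrpl23, Mrps33 and Mrps36.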
